A study of Homo sapiens with 36 samples.

Results

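The protein-coding genes of the cytosolic translation initiation and elongation factors were followed through the messenger RNA (mRNA) of HMC3 cells, an established human microglial line, after exposure to PFOS (perfluorooctane sulfonate, a persistent fluorinated surfactant) and after its withdrawal. Members were chosen by gene symbol: every row of the count table starting with EIF1 to EIF6 or with EEF1 or EEF2, without the EIF2AK kinases (4 rows) and without pseudogenes (2 rows). This left 63 of the 25344 rows, of which 59 were protein-coding factors and 4 were antisense or readthrough RNAs. Of the 59 factors, 51 passed the filter on low counts and were tested, among 9847 tested genes. The factors comprised 45 initiation factors (39 tested), 10 elongation factors including the eIF5A genes (9 tested), 3 inhibitors that bind eIF4E (2 tested) and the eEF2 kinase gene EEF2K (tested). The 8 untested factors were EIF1AY, EIF3C, EIF3CL, EIF4A1, EIF4E1B, EIF4E3, EIF4EBP3 and EIF5AL1.

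The RNA study had 6 groups of 3 libraries. Exposure lasted 24 h, with vehicle or with PFOS at one of 2 doses (25 µM and 50 µM), and cells were collected either directly or following 24 h more without PFOS, here called recovery. The vehicle cells of the recovery arm also had their medium changed, so each PFOS group was set against the vehicle group of its own time. Libraries were made from poly(A) RNA with Smart-seq2, and all came from 1 cell line. The labels call the libraries biological replicates without saying whether they came from separate cultures, so the error behind each p-value is that between libraries and may be technical. Another 18 samples of the series, H3K27ac CUT&Tag libraries of the same groups, were not analysed here.

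Translation starts when the small ribosomal subunit, carrying eIF1, eIF1A, eIF3, eIF5 and the complex of eIF2 with GTP and initiator tRNA, is brought to the cap of an mRNA by eIF4F, which consists of the cap-binding eIF4E, the scaffold eIF4G and the helicase eIF4A. The pathway has 2 well-known control points: phosphorylation of eIF2, which blocks its recycling by eIF2B, and the binding of eIF4E by 4E-BP proteins, which mTORC1 releases by phosphorylating them. Elongation then runs on eEF1A, which delivers aminoacyl-tRNA and is recharged by the eEF1B subunits, on eEF2, which moves the ribosome along the mRNA, and on eIF5A, which helps at difficult peptide bonds. Phosphorylation and translation itself were not measured here, only mRNA.

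Many mRNAs of the translation machinery begin with a 5′ terminal oligopyrimidine (TOP) tract, a C at the first base followed by a run of C and T, through which mTORC1 adjusts their translation. RefSeq promoter entries (GRCh38.p14) were found for 49 of the 59 factors. In 12 of the 49, 24.5%, the annotated start was a C followed by at least 4 more letters of C or T, against 5.14% of all 27305 gene symbols with an entry and 46 of 64 ribosomal protein genes. A symbol was counted if any of its entries matched, and of the 2 entries of EEF1B2 only 1 did. The 27305 symbols were not restricted to protein-coding or tested genes, so they are a set unlike the factors. These 12 starts are shown because they are a feature that the choice by symbol did not use, and because the changes of these genes are given as a group later. Each line gives 15 bases before the annotated start and 15 from it, 5′ to 3′ on the gene's strand, with the pyrimidine tract in capitals (cut at the end of the window in EEF1B2). They lie at chr6:73521018-73521047 (minus strand), chr2:206159880-206159909 (plus), chr19:3985449-3985478 (minus), chr3:150546772-150546801 (plus), chr1:206612451-206612480 (minus), chrX:24054941-24054970 (plus), chr22:36529152-36529181 (minus), chr11:7987322-7987351 (plus), chr19:38619173-38619202 (plus), chr11:32583816-32583845 (plus), chr3:186783562-186783591 (plus) and chr12:53006441-53006470 (plus).
EEF1A1: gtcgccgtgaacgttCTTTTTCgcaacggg
EEF1B2: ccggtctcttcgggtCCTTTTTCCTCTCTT
EEF2: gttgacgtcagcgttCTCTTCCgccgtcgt
EIF2A: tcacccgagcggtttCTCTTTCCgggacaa
EIF2D: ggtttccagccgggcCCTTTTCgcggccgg
EIF2S3: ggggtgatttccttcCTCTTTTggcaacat
EIF3D: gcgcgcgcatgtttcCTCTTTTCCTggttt
EIF3F: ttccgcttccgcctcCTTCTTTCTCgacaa
EIF3K: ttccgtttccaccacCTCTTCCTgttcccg
EIF3M: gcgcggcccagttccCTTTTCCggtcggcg
EIF4A2: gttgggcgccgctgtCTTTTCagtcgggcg
EIF4B: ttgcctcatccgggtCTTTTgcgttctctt

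Each library held between 582233 and 4346627 counts. Levels are given as CPM, counts normalised to library depth with trimmed mean of M-values (TMM) scaling. CPM is not corrected for gene length, so levels are compared between libraries and never between genes. Replicate 2 of the 50 µM recovery group stood apart: its correlation with the other libraries of its group was 0.849 and 0.915 (Pearson, log2 CPM across genes), while pairs in the other 5 groups reached at least 0.95. Ribosomal protein genes (87 genes) took 2.96%, 7.66% and 5.08% of the counts in the 3 libraries of that group, and between 1.22% and 2.44% in all others. For every factor called after recovery from 50 µM, the value without replicate 2 is therefore given too, as it is for the counts of calls. Of 14 microglia and macrophage markers, 5 (AIF1, CX3CR1, SALL1, C1QA and TYROBP) had no count in any library and 12 averaged under 1 CPM. All 8 markers of mesenchymal cells were detected. In bulk RNA, a smaller number of cells of one kind and less RNA per cell cannot be told apart.

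The factors as a whole moved little on a log2 scale, with single members far from the rest. After 24 h at 25 µM, 1 of 51 tested factors rose and none fell at an adjusted p under 0.05 (edgeR quasi-likelihood test, Benjamini-Hochberg over 9847 genes), where 1.24% of all tested genes were called (0.782% higher and 0.457% lower). After 24 h at 50 µM, 9 rose and 1 fell, 19.6% of the 51, where 18.8% of all tested genes were called (9.18% higher and 9.59% lower). The share of factors called at 50 µM was thus close to that of all genes. After recovery from 25 µM, 0 of 51 were called, as were 0% of all tested genes (6 factors and 693 genes at an unadjusted p under 0.05, and 0 factors and 1 gene with DESeq2). After recovery from 50 µM, 19 rose and 3 fell, 43.1% of the 51, where 28.4% of all tested genes were called (17.7% higher and 10.7% lower). Higher genes made up 62.2% of all calls there, and 47.9% with upper-quartile scaling, under which 17 factors rose and 6 fell. Without replicate 2 of that group, 10 rose and 1 fell, where 15.9% of 10032 tested genes were called (11% higher and 4.98% lower). Median log2 changes of the 51 were 0.11, 0.24, 0.08 and 0.39 in these 4 comparisons in turn, while those of all tested genes lay between -0.048 and 0.005. Without replicate 2 the median of the factors after 50 µM recovery was 0.18. Any difference among the 6 groups was called for 29 of 51 factors, 56.9%, where 44.5% of all tested genes were called.

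**Figure D1:**
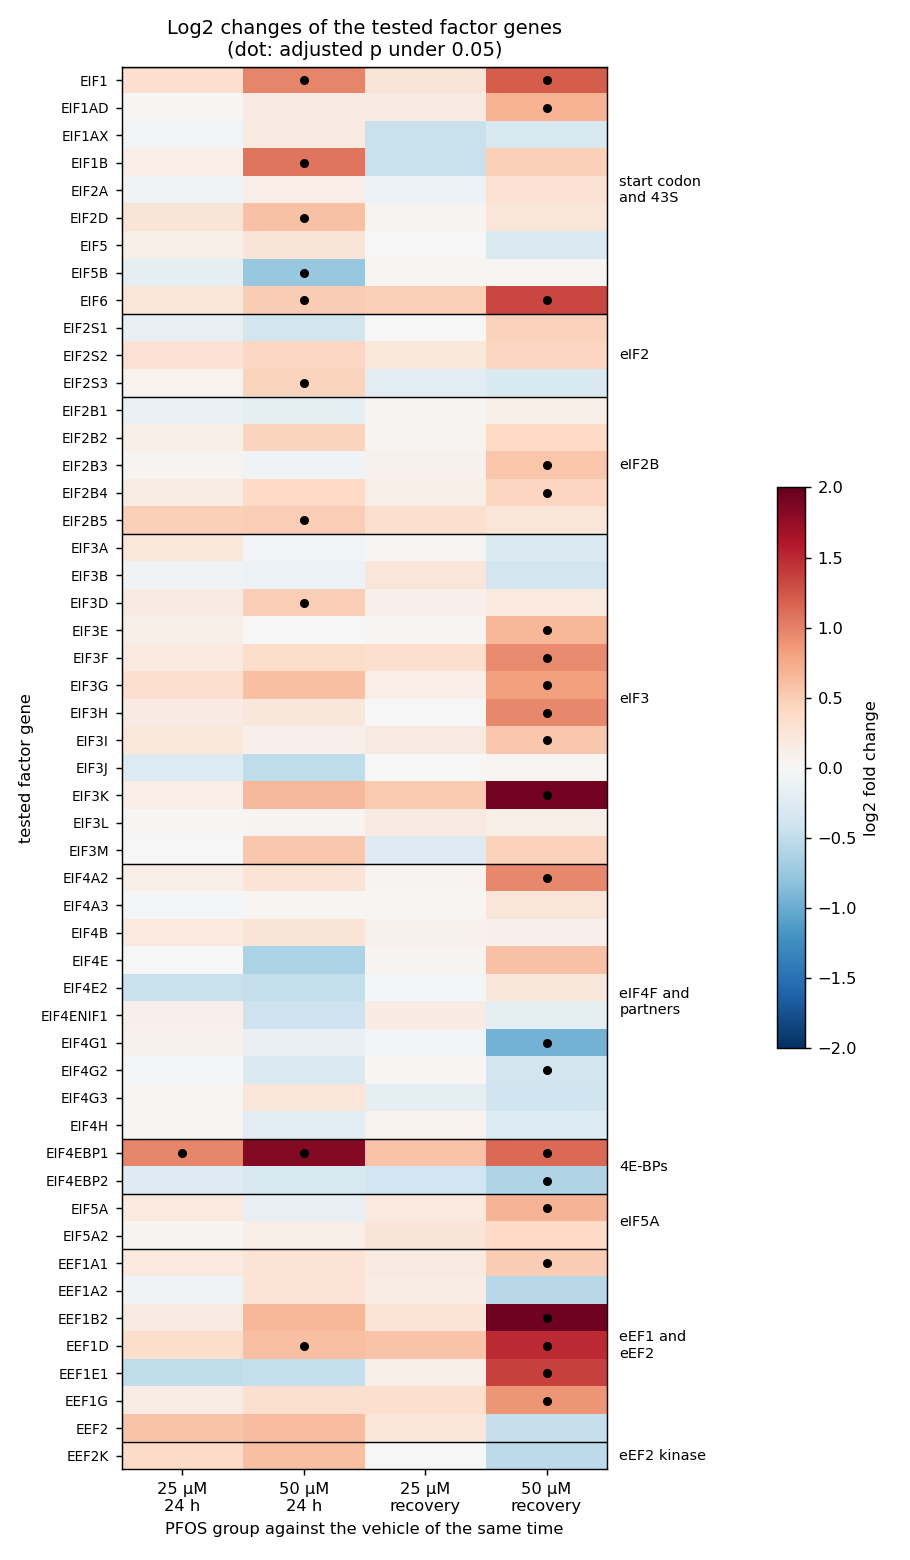
Log2 fold changes of the 51 tested factors (rows, grouped by role) in the 4 PFOS groups against the vehicle group of the same time (columns). Colour gives the log2 fold change and a dot marks an adjusted p under 0.05. Dots are on 1, 10, 0 and 22 genes in the 4 columns, and EIF4EBP1 carries 3 of them.

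EIF4EBP1, which encodes 4E-BP1, the inhibitor that holds eIF4E away from eIF4G until mTORC1 phosphorylates it, showed the largest change of any factor after 24 h at both doses. The gene lies on chromosome 8 from 38030534 to 38060365 (RefSeq, GRCh38.p14). At 24 h its level was 87, 71.3 and 86.6 CPM in the vehicle libraries, 194, 138 and 147 CPM at 25 µM and 261, 346 and 262 CPM at 50 µM. The 3 groups did not overlap, and each dose step was higher than the one before. After recovery the level was 101, 154 and 93.4 CPM with vehicle, 173, 183 and 165 CPM after 25 µM and 160, 329 and 281 CPM after 50 µM. Here both PFOS groups again lay above vehicle, but replicate 1 after 50 µM was below all 3 libraries after 25 µM.

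In the edgeR fit EIF4EBP1 rose by a log2 of 0.97 ± 0.23 (SE) at 25 µM (adjusted p = 0.0394) and by 1.83 ± 0.23 at 50 µM (adjusted p = 8.67e-06), which is 1.96-fold and 3.56-fold. The step from 25 to 50 µM was 0.86 ± 0.22 (adjusted p = 0.0213). After recovery the difference from vehicle was 0.57 ± 0.23 for 25 µM, which did not pass the test (adjusted p = 0.616, 95% interval 0.07 to 1.07), and EIF4EBP1 was higher by 1.13 ± 0.23 for 50 µM (adjusted p = 0.000906). Without replicate 2, the recovery value for 50 µM was 0.89 ± 0.22 (adjusted p = 0.00488). The 50 µM effect after recovery minus that at 24 h was -0.70 ± 0.32 (adjusted p = 0.133), and -0.94 ± 0.29 without replicate 2 (adjusted p = 0.0311), so a smaller effect after recovery was called without that library alone. The call at 25 µM rested on all 6 libraries: leaving out any 1 of them gave adjusted p between 0.07 and 0.247, with log2 changes of 0.81 to 1.07.

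Of the other 2 genes for 4E-BPs, EIF4EBP3 had 2 counts in all and was not tested. EIF4EBP2, the 4E-BP common in the brain, read 315, 231 and 277 CPM with vehicle at 24 h, 244, 215 and 226 at 25 µM and 196, 263 and 200 at 50 µM. After recovery it read 241, 309 and 232 CPM with vehicle, 208, 173 and 227 after 25 µM and 217, 136 and 163 after 50 µM. The groups overlapped at 24 h and separated after recovery for both doses. EIF4EBP2 fell by -0.61 ± 0.19 relative to vehicle after recovery from 50 µM (log2, adjusted p = 0.0184 in edgeR), against -0.46 ± 0.18 without replicate 2 (adjusted p = 0.0856), where the call was lost. Its log2 changes in the other 3 comparisons, -0.26, -0.32 and -0.38, did not pass the test.

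EIF4E, the target of both inhibitors, read 48.2, 63.8 and 58.3 CPM with vehicle at 24 h, 58.3, 51.5 and 63.5 at 25 µM and 36.2, 38.9 and 36.7 at 50 µM. The 50 µM libraries all lay below vehicle, with a log2 difference of -0.63 ± 0.25 that did not pass the test (adjusted p = 0.0804). After recovery EIF4E read 29.9, 48 and 55.4 CPM with vehicle, 55.3, 46 and 41.1 after 25 µM and 39.5, 87.5 and 75 after 50 µM, and the groups overlapped. The ratio of EIF4EBP1 to EIF4E counts within a library was 1.81, 1.12 and 1.49 with vehicle at 24 h, 3.33, 2.69 and 2.32 at 25 µM, and 7.20, 8.89 and 7.14 at 50 µM. On the log2 scale this ratio was higher by 0.93 at 25 µM and by 2.42 at 50 µM, with no overlap between groups (exact permutation test, two-sided, p = 0.1 for each, the smallest that 3 against 3 libraries allow). After recovery the ratio was 3.39, 3.21 and 1.69 with vehicle, 3.12, 3.99 and 4.03 after 25 µM, and 4.06, 3.76 and 3.74 after 50 µM.

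Over the 6 group means of log2(CPM + 1), the 5 genes with the pattern most like EIF4EBP1, among 8430 genes averaging at least 10 CPM, were LZTFL1 (Pearson r 0.991), L3HYPDH (0.990), SMYD3 (0.988), DTX3 (0.979) and BEX4 (0.977). The factor most like it was EIF2S2 (0.963), the gene of eIF2β. With 6 points and 8430 genes ranked, these values describe the order only.

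**Figure D2:**
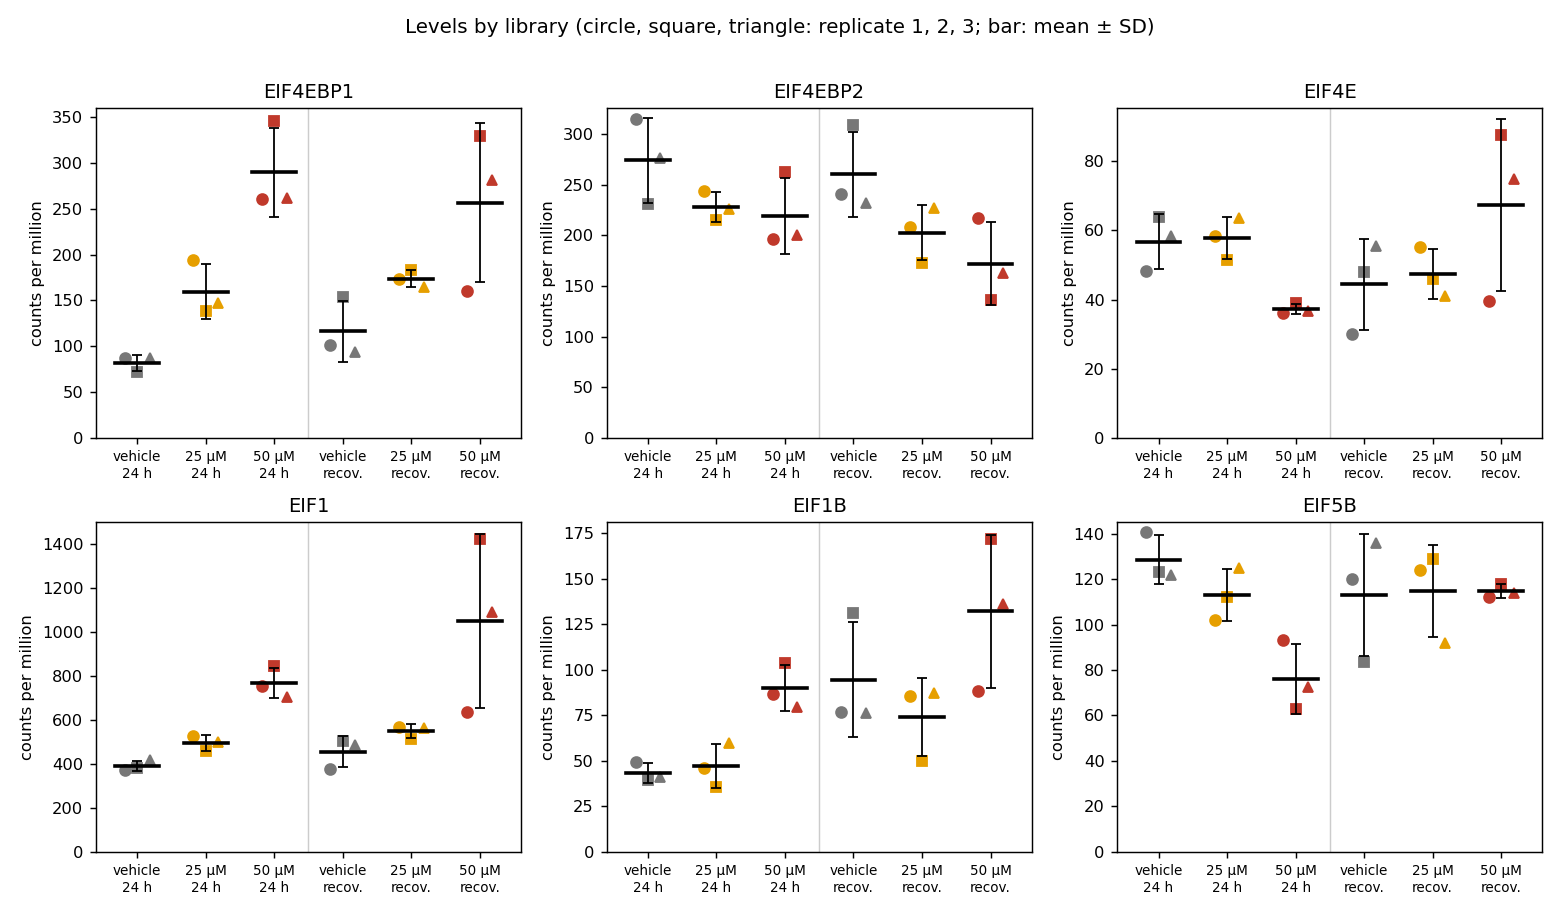
Levels of EIF4EBP1, EIF4EBP2, EIF4E, EIF1, EIF1B and EIF5B in CPM (vertical axis) for each library of the 6 groups (horizontal axis), with group mean and SD. EIF4EBP1, EIF1 and EIF1B lie above vehicle in all 3 libraries at 50 µM for 24 h, and EIF5B and EIF4E lie below it.

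A mixed group of factors, for scanning, start codon selection, subunit joining and recycling, held the next largest changes at 50 µM for 24 h. Of 9 tested genes in this group, 4 rose (EIF1B, EIF1, EIF2D and EIF6) and 1 fell (EIF5B), where 18.8% of all tested genes were called. EIF1 encodes eIF1, which keeps the scanning ribosome from starting at wrong codons. Its level was 373, 379 and 417 CPM with vehicle at 24 h, 527, 458 and 497 at 25 µM and 754, 842 and 705 at 50 µM. After recovery it was 375, 502 and 487 CPM with vehicle, 568, 511 and 562 after 25 µM and 634, 1420 and 1090 after 50 µM. All PFOS groups were above their vehicle group. EIF1 rose by a log2 of 0.97 ± 0.20 at 50 µM (adjusted p = 0.00139) and was higher by 1.21 ± 0.20 after recovery from 50 µM (adjusted p = 0.000147), or 0.91 ± 0.16 without replicate 2 (adjusted p = 0.000273). The log2 differences at 25 µM, 0.34 and 0.26, did not pass the test.

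EIF1B, a close paralog of EIF1, read 49.4, 39.3 and 41.2 CPM with vehicle at 24 h, 46.1, 35.6 and 59.7 at 25 µM and 86.9, 104 and 79.5 at 50 µM. It rose by 1.07 ± 0.28 at 50 µM (log2, adjusted p = 0.01), with no overlap, and by 0.95 ± 0.28 from 25 to 50 µM (adjusted p = 0.0406). Vehicle libraries themselves differed in time for this gene: after recovery they read 76.6, 131 and 76 CPM, higher than at 24 h by 1.17 ± 0.27 (adjusted p = 0.0398). It was the 1 factor of 51 called between the vehicle groups, where 0.975% of all tested genes were called (0.335% higher and 0.64% lower), and leaving out any 1 of 5 of these 6 libraries lost the call. The recovery libraries read 85.5, 49.6 and 87.5 CPM after 25 µM and 88.4, 172 and 136 after 50 µM, overlapping vehicle.

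EIF6, whose protein keeps the large subunit from joining too early and works in its assembly, read 330, 384 and 420 CPM with vehicle at 24 h, 506, 407 and 430 at 25 µM and 564, 534 and 521 at 50 µM. After recovery it read 334, 332 and 289 CPM with vehicle, 441, 477 and 412 after 25 µM and 613, 966 and 827 after 50 µM. Both 50 µM groups lay clear of vehicle. EIF6 rose by 0.51 ± 0.15 at 24 h (log2, adjusted p = 0.0236) and was higher by 1.33 ± 0.16 after recovery (adjusted p = 1.87e-05), or 1.17 ± 0.14 without replicate 2 (adjusted p = 3.61e-06). Its 24 h call was lost in 4 of 6 fits that each left out 1 library. The recovery effect exceeded the 24 h effect by 0.82 ± 0.22 (adjusted p = 0.0128) and remained called when any 1 of the 12 libraries was left out.

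EIF2D encodes a factor that can deliver tRNA to the ribosome without GTP and acts in recycling. It read 43.5, 38.9 and 49.5 CPM with vehicle, 46.8, 53.1 and 58.5 at 25 µM and 67.3, 58.4 and 71.9 at 50 µM at 24 h, without overlap at 50 µM, and rose by 0.59 ± 0.17 (log2, adjusted p = 0.019). Leaving out 1 library lost the EIF2D call in 3 of 6 fits. EIF5B, whose GTPase joins the large subunit to the initiation complex, read 141, 123 and 122 CPM with vehicle, 102, 112 and 125 at 25 µM and 93.1, 62.7 and 72.4 at 50 µM. It fell by -0.75 ± 0.19 at 50 µM (log2, adjusted p = 0.00838), with every 50 µM library below every vehicle library. In the 50 µM recovery libraries its log2 difference was 0.02 ± 0.19 (adjusted p = 0.941), with 112, 118 and 114 CPM against 120, 83.6 and 136 for vehicle. EIF5, the GTPase activator of eIF2, read 556, 681 and 635 CPM with vehicle, 679, 707 and 658 at 25 µM and 758, 749 and 744 at 50 µM at 24 h. After recovery EIF5 read 499, 541 and 632 CPM with vehicle, 640, 516 and 525 after 25 µM and 415, 505 and 450 after 50 µM. It passed no test against vehicle (log2 0.26 and -0.29 for 50 µM). EIF1AX, EIF1AD and EIF2A complete the group, and of them EIF1AD was higher after recovery from 50 µM (log2 0.69 ± 0.23, adjusted p = 0.028), a call lost without replicate 2 (adjusted p = 0.0788).

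Genes of eIF2 and its exchange factor eIF2B, the pair on which the integrated stress response acts, had log2 changes between -0.36 and 0.56 in all 4 comparisons with vehicle. The 3 eIF2 subunit genes differed in direction at 50 µM for 24 h. EIF2S1, the α subunit that carries the regulatory phosphorylation site, read 443, 500 and 450 CPM with vehicle, 450, 379 and 416 at 25 µM and 378, 366 and 342 at 50 µM. After recovery it read 329, 342 and 413, 394, 338 and 364 and 337, 665 and 481 CPM in the same order. The 50 µM libraries lay below vehicle at 24 h, with a log2 difference of -0.36 ± 0.18 (adjusted p = 0.163), and after recovery the difference was 0.45 ± 0.18 (adjusted p = 0.0585). Neither passed the test. EIF2S2, the β subunit, read 456, 501 and 466 CPM with vehicle, 593, 554 and 613 at 25 µM and 633, 699 and 575 at 50 µM, then 444, 535 and 567, 602, 512 and 677 and 488, 937 and 654 CPM after recovery. Both doses lay above vehicle at 24 h, but the log2 differences of 0.30 and 0.42 did not pass the test. EIF2S3, the γ subunit that holds GTP and the initiator tRNA, read 463, 355 and 366 CPM with vehicle and 559, 623 and 425 at 50 µM, groups that overlapped, and was just inside the threshold (log2 0.44 ± 0.15, adjusted p = 0.0498). The EIF2S3 call was lost in 4 of 6 fits that each left out 1 library. Once recovered from 50 µM, this gene read 353, 386 and 429 CPM against 446, 526 and 471, a log2 difference of -0.31 that did not pass.

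Among the 5 eIF2B subunits, EIF2B5, the catalytic ε subunit, rose at 50 µM for 24 h. It read 64.7, 54.8 and 65.7 CPM with vehicle, 83.5, 85.8 and 86.2 at 25 µM and 82.8, 77.9 and 95.9 at 50 µM, and both PFOS groups lay above vehicle. The log2 change at 50 µM was 0.49 ± 0.17 (adjusted p = 0.0493), just inside the threshold, and that at 25 µM was 0.47 ± 0.17 (adjusted p = 0.277). The call at 50 µM was lost whichever of the 6 libraries was left out. After recovery EIF2B5 read 57.4, 48.5 and 54.5, 67.1, 69.4 and 64.8 and 79.1, 47.4 and 62.5 CPM, and neither dose passed the test. EIF2B3 and EIF2B4, the γ and δ subunits, were higher after recovery from 50 µM. EIF2B3 read 66.6, 63.7 and 70 CPM with vehicle and 89.5, 113 and 91.7 after 50 µM (log2 0.56 ± 0.16, adjusted p = 0.0115). EIF2B4 read 98, 99.8 and 92.9 and 114, 137 and 142 CPM (log2 0.43 ± 0.15, adjusted p = 0.0375). Both groups of libraries were apart for both genes, and both calls were lost without replicate 2 (adjusted p = 0.0844 and 0.105). At 24 h EIF2B3 read 83.5, 71.7 and 62.1 CPM with vehicle, 79.2, 64.2 and 80.5 at 25 µM and 71.4, 68.1 and 65.3 at 50 µM, and after recovery from 25 µM 67.1, 72.8 and 71.3. EIF2B4 read 94.1, 116 and 110 CPM with vehicle, 118, 122 and 118 at 25 µM and 146, 130 and 150 at 50 µM at 24 h, and 90.5, 122 and 96.2 after recovery from 25 µM. Neither of these passed a test.

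EIF2B1 and EIF2B2, the α and β subunits, passed no test. EIF2B1 read 145, 137 and 122 CPM with vehicle, 120, 131 and 112 at 25 µM and 107, 121 and 122 at 50 µM at 24 h, then 142, 143 and 114, 127, 135 and 152 and 110, 172 and 150 after recovery. EIF2B2 read 67, 99.4 and 107, 111, 90.6 and 103 and 110, 156 and 116 CPM at 24 h and 91.9, 93.3 and 88.3, 93.9, 101 and 87.5 and 107, 149 and 100 after recovery. Across eIF2B, 1 of 5 genes rose at 50 µM for 24 h (18.8% of all tested genes called) and 2 of 5 after recovery (28.4%), with none of 5 after recovery once replicate 2 was left out (15.9%).

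The subunits of eIF3, the large scaffold on the small ribosomal subunit, did not move as a block. Of 14 genes, 12 were tested, since EIF3C had 8 counts in all and its near-identical copy EIF3CL none. At 50 µM for 24 h, 1 of 12 rose, where 9.18% of all tested genes did. This was EIF3D, a subunit that can itself bind the cap of some mRNAs, at 333, 351 and 374 CPM with vehicle, 406, 407 and 389 at 25 µM and 520, 461 and 507 at 50 µM (log2 0.49 ± 0.12, adjusted p = 0.00552), with no overlap. EIF3D was not called after recovery from 50 µM (log2 0.20 ± 0.12, adjusted p = 0.211). In recovery from 50 µM, 6 of 12 eIF3 genes were higher, against 17.7% of all tested genes, and 3 of 12 without replicate 2, against 11%. The 6 were EIF3K, EIF3H, EIF3F, EIF3G, EIF3E and EIF3I. EIF3K, a small outer subunit, read 42.9, 68.9 and 46.7 CPM with vehicle, 73.8, 80.6 and 75.6 after 25 µM and 122, 278 and 214 after 50 µM, with no overlap between any of the groups. It was higher by 1.93 ± 0.25 after 50 µM (log2, adjusted p = 2.31e-05), or 1.61 ± 0.23 without replicate 2 (adjusted p = 1.65e-05). At 24 h EIF3K read 43.5, 46.5 and 61.8, 69.9, 47.2 and 55.3 and 72.4, 95.2 and 76 CPM, with a log2 difference of 0.65 ± 0.26 at 50 µM that did not pass (adjusted p = 0.0813).

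EIF3H read 132, 167 and 161 CPM with vehicle and 164, 466 and 267 after 50 µM, with replicate 1 inside the vehicle range and replicate 2 far above. Its log2 difference of 0.96 ± 0.23 (adjusted p = 0.0037) became 0.47 ± 0.17 without replicate 2 (adjusted p = 0.0527), and the calls for EIF3E and EIF3I were lost as well (adjusted p = 0.296 and 0.0518). EIF3F and EIF3G remained called without it, at 0.88 ± 0.14 and 0.81 ± 0.22. EIF3F read 158, 205 and 198 CPM with vehicle and 301, 389 and 393 after 50 µM, and EIF3G 81.2, 79.9 and 59 and 97.7, 130 and 163, both without overlap. In the opposite direction, EIF3A and EIF3B, core subunits around which the complex assembles, had log2 differences of -0.29 ± 0.16 and -0.38 ± 0.23 after recovery from 50 µM, and neither passed the test. EIF3J, a loosely bound subunit near the decoding site, read 165, 165 and 160 CPM with vehicle at 24 h and 114, 116 and 115 at 50 µM, apart in all libraries but just outside the threshold (log2 -0.50 ± 0.18, adjusted p = 0.0517). EIF3L and EIF3M passed no test against vehicle.

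**Figure D3:**
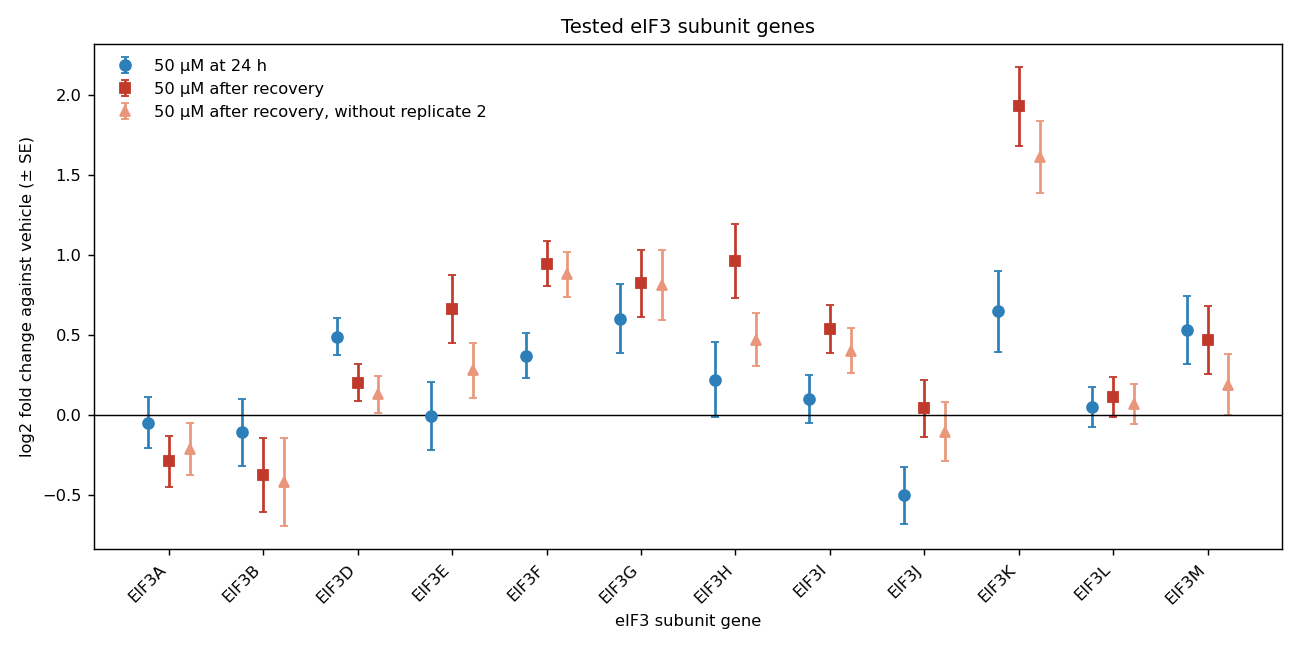
Log2 fold change ± SE (vertical axis) of the 12 tested eIF3 subunit genes (horizontal axis) for 50 µM against vehicle at 24 h, after recovery, and after recovery without replicate 2. EIF3K, EIF3F and EIF3G stay well above 0 without replicate 2, while EIF3E and EIF3H drop to 0.28 and 0.47.

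The cap-binding complex eIF4F and its partners had no call among 10 tested genes at 50 µM for 24 h. EIF4A1, the gene for the main eIF4A helicase, is listed at 0 in all 18 libraries, as is the readthrough gene SENP3-EIF4A1 that overlaps it, while SNORD10, a small nucleolar RNA inside it, holds 1604 counts. The zero is therefore given as listed and not read as a level. EIF4A2, its paralog, read 286, 301 and 282 CPM with vehicle at 24 h, 336, 285 and 321 at 25 µM and 325, 372 and 356 at 50 µM. After recovery EIF4A2 read 335, 361 and 441 CPM with vehicle, 406, 375 and 405 after 25 µM and 549, 938 and 714 after 50 µM. The 50 µM recovery libraries lay above all others of that time. EIF4A2 was higher there by 0.95 ± 0.16 (log2, adjusted p = 0.000187), or 0.73 ± 0.14 without replicate 2 (adjusted p = 0.000436).

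EIF4G1, the main scaffold that bridges cap, helicase and eIF3, went the other way. It read 514, 524 and 529 CPM with vehicle at 24 h, 573, 559 and 528 at 25 µM and 467, 463 and 483 at 50 µM. After recovery EIF4G1 read 560, 422 and 404 CPM with vehicle, 406, 487 and 440 after 25 µM and 352, 118 and 254 after 50 µM. Every 50 µM recovery library was below every other library of that time, and replicate 2 was the lowest. EIF4G1 fell by -0.94 ± 0.23 relative to vehicle (log2, adjusted p = 0.00479), and by -0.60 ± 0.15 without replicate 2 (adjusted p = 0.00626), where it kept its call. The call was lost when the 9 libraries of recovery (adjusted p = 0.0806) or the 6 libraries of this comparison (adjusted p = 0.169) were fitted alone. EIF4G2, a relative without the eIF4E site that serves cap-independent starts, was lower by -0.37 ± 0.14 (adjusted p = 0.049), at 1420, 1120 and 1200 CPM against 1630, 1330 and 1870, and lost its call without replicate 2 (adjusted p = 0.145). EIF4E2, a cap-binding relative of eIF4E, lay below vehicle in every library at both doses at 24 h, with log2 differences of -0.44 ± 0.17 and -0.48 ± 0.18 that did not pass (adjusted p = 0.391 and 0.0649). EIF4A3, EIF4B, EIF4ENIF1, EIF4G3 and EIF4H passed no test against vehicle.

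Elongation factors were the group with the larger share of calls after recovery from 50 µM: 6 of 9 tested genes were higher and none lower, against 12 higher and 2 lower of 39 initiation factors, where 28.4% of all tested genes were called (17.7% higher). The 6 include EEF1E1, which is described below. Without replicate 2 these counts were 3 of 9 and 6 higher and 1 lower of 39, where 15.9% of all tested genes were called. No test of the difference between both classes was made. At 50 µM for 24 h the counts were 1 of 9 (EEF1D) and 7 higher and 1 lower of 39.

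EEF1B2, which encodes the nucleotide exchange subunit eEF1Bα, read 97.6, 90.8 and 101 CPM with vehicle at 24 h, 112, 101 and 114 at 25 µM and 151, 165 and 141 at 50 µM. After recovery EEF1B2 read 89.6, 124 and 92 CPM with vehicle, 131, 122 and 120 after 25 µM and 187, 649 and 339 after 50 µM. The 3 libraries after 50 µM were spread over more than a 3-fold range, and the lowest was above all others of that time. EEF1B2 was higher by 1.94 ± 0.27 (log2, adjusted p = 4.04e-05), the largest change of any factor in that comparison, or 1.34 ± 0.18 without replicate 2 (adjusted p = 1.23e-05). At 24 h its log2 difference of 0.66 ± 0.28 did not pass the test (adjusted p = 0.103).

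EEF1D, the second exchange subunit, read 115, 150 and 137 CPM with vehicle at 24 h, 189, 162 and 169 at 25 µM and 190, 211 and 216 at 50 µM. After recovery EEF1D read 154, 179 and 137 CPM with vehicle, 213, 253 and 227 after 25 µM and 294, 555 and 468 after 50 µM, with all 3 groups apart. It rose by 0.61 ± 0.19 at 50 µM for 24 h (log2, adjusted p = 0.0256), and was higher by 1.49 ± 0.18 after recovery (adjusted p = 2.09e-05), or 1.27 ± 0.16 without replicate 2 (adjusted p = 7.5e-06). The 24 h call of EEF1D was lost in 4 of 6 fits that each left out 1 library. EEF1G, the structural subunit of the same complex, read 536, 517 and 554 CPM with vehicle, 662, 653 and 703 after 25 µM and 792, 1130 and 1040 after 50 µM, again apart, and was higher by 0.88 ± 0.13 (adjusted p = 5.65e-05), or 0.77 ± 0.12 without replicate 2 (adjusted p = 6.17e-05). EEF1E1, which bears an elongation factor name but encodes a scaffold protein of the tRNA synthetase complex, read 13.8, 24.4 and 17.4 CPM with vehicle and 18.6, 82.9 and 44.5 after 50 µM. Its replicate 1 lay within the vehicle range, and its log2 difference of 1.37 ± 0.35 (adjusted p = 0.00645) fell to 0.66 ± 0.34 without replicate 2 (adjusted p = 0.203), ending the call.

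EEF1A1, the main eEF1A gene and one with many processed pseudogene copies, read 1510, 1590 and 1670 CPM with vehicle at 24 h, 1820, 1820 and 1800 at 25 µM and 1960, 1780 and 2040 at 50 µM. After recovery EEF1A1 read 1450, 1440 and 1630 CPM with vehicle, 1680, 1800 and 1610 after 25 µM and 1740, 2690 and 1990 after 50 µM. No PFOS library reached down to its vehicle group at 24 h, yet the log2 differences of 0.19 and 0.28 did not pass the test. After recovery from 50 µM it was higher by 0.51 ± 0.14 (adjusted p = 0.00913), a call lost without replicate 2 (0.31 ± 0.12, adjusted p = 0.0691). EEF1A2, the form of neurons and muscle, read 54.1, 33.9 and 53 CPM with vehicle, 43.2, 40.2 and 49.7 at 25 µM and 49.7, 59.5 and 58.1 at 50 µM, then 61.3, 71.5 and 32.5, 55.3, 62.3 and 64.8 and 52.3, 30.1 and 30.6 after recovery. It passed no test.

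EEF2, the translocase, read 539, 500 and 542 CPM with vehicle at 24 h, 784, 825 and 740 at 25 µM and 835, 638 and 935 at 50 µM. After recovery EEF2 read 621, 372 and 460 CPM with vehicle, 486, 702 and 521 after 25 µM and 527, 113 and 417 after 50 µM. At 24 h all 6 PFOS libraries were above the 3 vehicle libraries, and after recovery replicate 2 of the 50 µM group was the lowest of all 18 while the groups overlapped. The log2 differences of 0.57 ± 0.32 and 0.61 ± 0.32 at 24 h did not pass the test (adjusted p = 0.655 and 0.195), nor did -0.47 ± 0.32 after recovery from 50 µM, which became -0.03 ± 0.19 without replicate 2 (adjusted p = 0.943). EEF2K, whose kinase halts eEF2, read 12.9, 14.1 and 20.9 CPM with vehicle, 20.9, 20.2 and 24.5 at 25 µM and 23.8, 29.2 and 23.5 at 50 µM, then 17.6, 17.8 and 11.9, 11.7, 18.3 and 13 and 18.6, 4.56 and 11.1 after recovery. It passed no test, with log2 differences of 0.60 at 50 µM for 24 h and -0.52 after recovery, or -0.07 ± 0.35 without replicate 2. EIF5A read 231, 273 and 285 CPM with vehicle, 328, 272 and 306 at 25 µM and 209, 251 and 247 at 50 µM at 24 h. After recovery EIF5A read 246, 241 and 215 CPM with vehicle, 280, 284 and 242 after 25 µM and 272, 519 and 332 after 50 µM. It was higher by 0.68 ± 0.18 after 50 µM (adjusted p = 0.00754), a call lost without replicate 2 (0.37 ± 0.14, adjusted p = 0.0832). EIF5A2, its paralog, was not called.

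**Figure D4:**
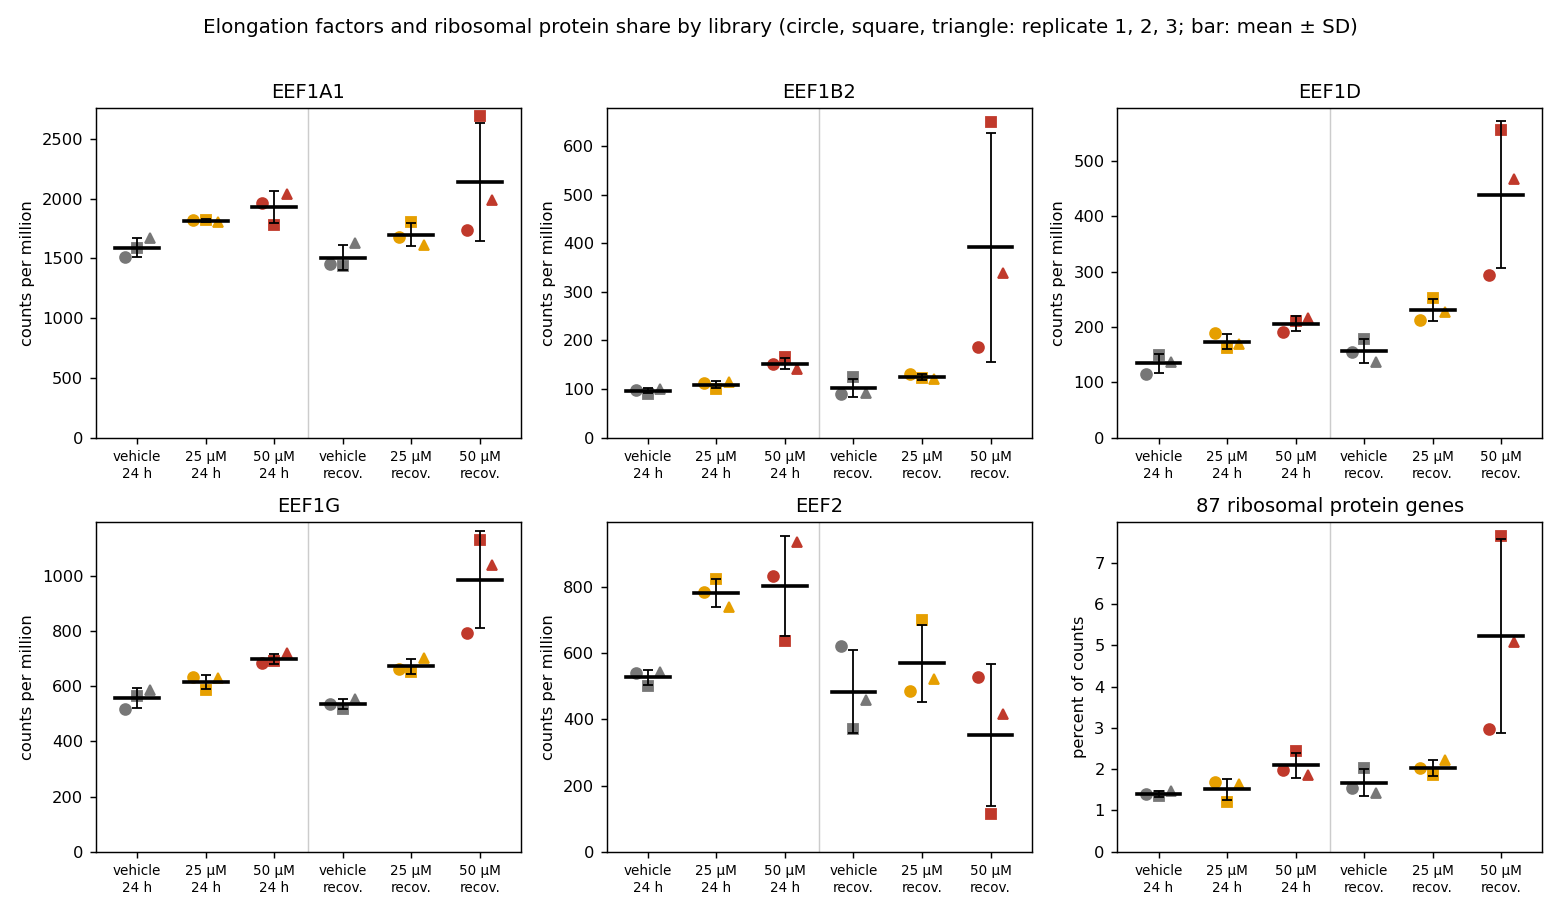
Levels of 5 elongation factor genes in CPM and the share of counts taken by 87 ribosomal protein genes in percent (vertical axes) for each library of the 6 groups, with group mean and SD. Replicate 2 after 50 µM and recovery (square) is the highest for EEF1A1, EEF1B2, EEF1D, EEF1G and the ribosomal protein share and the lowest for EEF2.

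The order of the 50 µM recovery libraries was the same in several factors. EEF1B2, EEF1D, EEF1G, EEF1A1, EIF1, EIF6, EIF3K and EIF4A2 were lowest in replicate 1, middle in replicate 3 and highest in replicate 2, as was the ribosomal protein share, and EEF2 and EIF4G1 ran in the reverse order. Not all factors did so: EIF3F, EIF3G and EIF2B4, also called higher there, were highest in replicate 3. The share of all tested genes with either order was not counted. The summed level of the 8 mesenchymal markers was 3800 to 12500 CPM in that group and 12900 to 17700 CPM in its vehicle group. At 24 h it was 14500 to 18400 CPM at 50 µM and 14300 to 16600 with vehicle. Of the 7 markers tested, 4 fell at 50 µM for 24 h, where 9.59% of all tested genes did. These were COL1A1, COL1A2, PDGFRB and THY1, and the median log2 change of the 7 was -0.94. After recovery from 50 µM, 4 were lower (COL1A1, COL1A2, PDGFRB and FN1, median -0.81), where 10.7% of all tested genes were lower. The recovery calls of these markers include replicate 2 and are not given without it. Of the 14 microglia and macrophage markers, 12 averaged under 1 CPM. The summed level of all 14 was 280 to 317 CPM at 50 µM for 24 h and 214 to 239 with vehicle. From this list the single gene CD68 rose at 50 µM for 24 h, from 17.6, 20.5 and 20.6 CPM to 54.9, 53 and 78.5 (log2 1.66 ± 0.23, adjusted p = 2.93e-05 in edgeR). CD68 was also higher after recovery. With so few markers measurable, it does not show a change of cell type. The part of these differences in the factor results was not tested.

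The 59 factor genes together took 1.27%, 1.44% and 1.40% of the counts with vehicle at 24 h, 1.57%, 1.51% and 1.52% at 25 µM, and 1.58%, 1.51% and 1.60% at 50 µM. EIF4A1 and EIF3CL entered these sums and the initiation factor counts at 0, and EIF3C at 8 counts in all, as listed. The sums therefore do not hold the main eIF4A helicase gene. After recovery they took 1.29%, 1.25% and 1.40% with vehicle, 1.48%, 1.48% and 1.44% after 25 µM, and 1.48%, 1.78% and 1.62% after 50 µM. All 12 PFOS libraries lay above the vehicle libraries of their time, and each comparison reached p = 0.1, the smallest possible (exact permutation test, two-sided). Mean shares were 1.37% ± 0.09 (SD, n = 3) with vehicle at 24 h and 1.31% ± 0.08 after recovery, against 1.53% ± 0.03, 1.57% ± 0.05, 1.47% ± 0.02 and 1.63% ± 0.15 in the PFOS groups in the order above. The widest 95% Wilson interval of a single library was 1.45% to 1.52%, for replicate 1 after 25 µM and recovery, and such intervals cover counting error only. The log2 ratio of initiation to elongation factor counts was lower by 0.17, 0.21, 0.17 and 0.33 than in vehicle, with p = 0.1 by the exact permutation test in all but the third comparison, 25 µM recovery, where libraries overlapped and p = 0.2. Without replicate 2 after 50 µM, the share in that group was higher than in vehicle by 0.238 percentage points and the log2 ratio lower by 0.29.

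**Figure D5:**
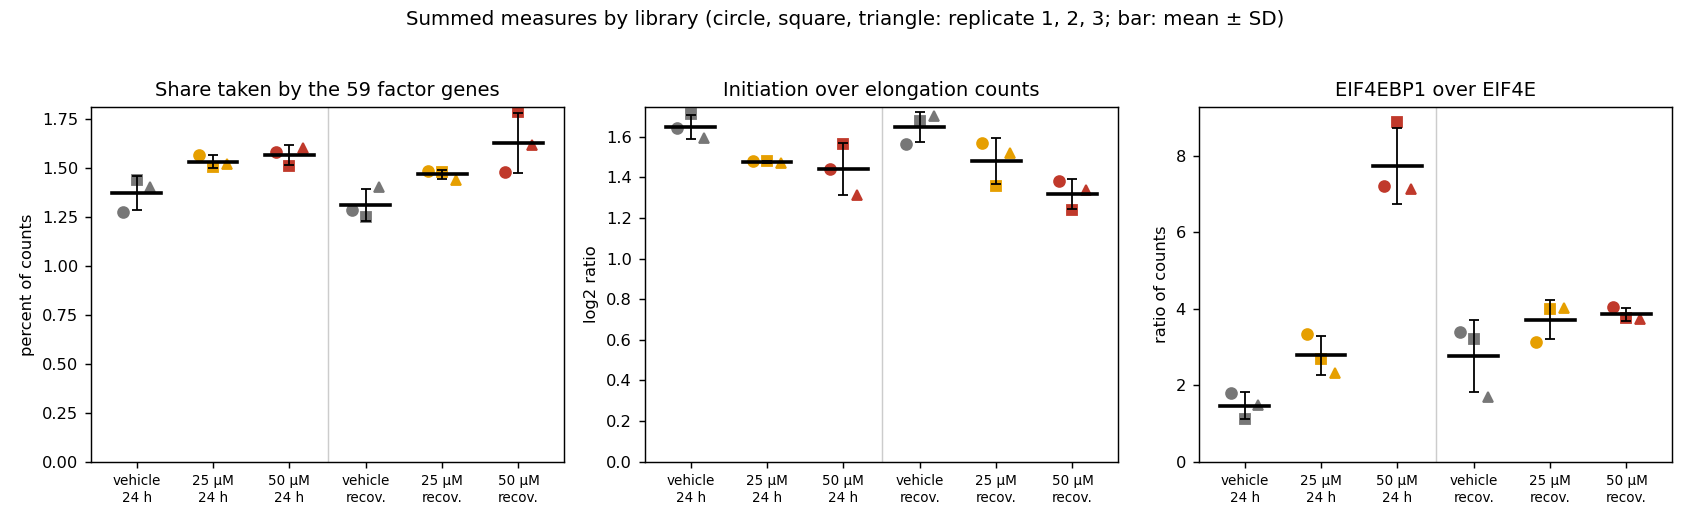
Share of all counts taken by the 59 factor genes (percent), log2 ratio of initiation to elongation factor counts, and ratio of EIF4EBP1 to EIF4E counts (vertical axes) for each library of the 6 groups, with group mean and SD. EIF4A1 enters the share and the log2 ratio at the 0 counts listed. All PFOS libraries lie above their vehicle group in the share, and the 50 µM libraries at 24 h reach ratios of EIF4EBP1 to EIF4E between 7.14 and 8.89.

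Counting factors whose 3 PFOS and 3 vehicle libraries did not overlap, 14 lay higher and 2 lower at 25 µM for 24 h, where 22.9% of all tested genes did not overlap. At 50 µM for 24 h, 26 lay higher and 8 lower (41.4% of all tested genes). After recovery 9 lay higher and 2 lower for 25 µM (13.8%), and 19 higher and 4 lower for 50 µM (31.3%), or 21 and 6 without replicate 2 (40.3%, with 2 libraries against 3). In the direct comparison of the doses at 24 h, 2 factors were higher at 50 µM than at 25 µM, EIF4EBP1 and EIF1B, and none was lower, where 7.4% of all tested genes were called (3.79% higher and 3.62% lower). After recovery the same comparison called 15 higher and 2 lower, where 22.1% of all tested genes were called (14.7% higher and 7.38% lower), or 12 higher and 4 lower with upper-quartile scaling, which took the share of higher among all calls from 66.5% to 52.5%. It called 8 higher and 1 lower without replicate 2 (9.28% of all tested genes). These comparisons share their libraries with those against vehicle.

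The effect of 50 µM differed between recovery and 24 h for 14 of 51 factors, 12 of them more positive after recovery, where 19.1% of all tested genes were called (11.6% more positive and 7.42% less). Upper-quartile scaling called 8 factors more positive and 2 less, and took the share of more positive among all calls from 61.1% to 48.6%. EEF1E1 (log2 1.84 ± 0.54), EIF3K (1.28 ± 0.35), EEF1B2 (1.28 ± 0.38) and EIF4E (1.21 ± 0.35) had the largest such differences, and EIF2S3 (-0.75 ± 0.22) and EIF5 (-0.55 ± 0.19) were lower. Without replicate 2, 3 were higher (EEF1D, EIF3K and EIF6) and 3 lower (EIF2S3, EIF5 and EIF4EBP1), where 13.5% of all tested genes were called. For 25 µM the effects at both times were called different for 0 of 51 factors, where 0.0203% of all tested genes were called (0 factors at an unadjusted p under 0.05, and 0 with DESeq2).

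The spread used in all these tests was shared over 18 libraries. When the 9 libraries of 24 h were fitted alone, 22 factors rose and 6 fell at 50 µM, where 32.6% of all tested genes were called. In the 6 libraries of that comparison alone, 18 rose and 5 fell (30.9% of all tested genes), with EEF2, EEF1B2, EEF1G, EIF3F, EIF3G, EIF3K, EIF3M, EIF2B4 and EIF2S2 among those higher and EIF4E, EIF4E2, EIF3J and EIF2S1 among those lower. For recovery from 50 µM the counts went the other way. The 9 libraries of recovery alone gave 16 higher and 0 lower, where 16.8% of all tested genes were called and 83.2% of these calls were higher, and the 6 libraries of the comparison gave 9 higher and 0 lower (9.53%, with 92% of calls higher).

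Genes that act on these factors were read beside them, where 18.8% of all tested genes were called at 50 µM for 24 h and 28.4% after recovery from 50 µM (15.9% without replicate 2). Of 11 tested genes for the eIF2 kinases, their regulators and the eIF2 phosphatase, 2 rose at 50 µM for 24 h: ATF4, the transcription factor translated under eIF2 phosphorylation, and PPP1R15A, the stress-induced phosphatase subunit GADD34. PPP1R15A read 216, 173 and 200 CPM with vehicle, 295, 355 and 325 at 25 µM and 671, 640 and 727 at 50 µM, with all groups apart (log2 1.80 ± 0.21 at 50 µM, adjusted p = 3.35e-06). ATF4 read 80, 53.3 and 65.7, 120, 110 and 120 and 197, 181 and 186 CPM in the same order. In the same list EIF2AK2, the RNA-activated eIF2 kinase PKR, and the phosphatase catalytic genes PPP1CB and PPP1CC fell. Following recovery from this dose, 2 of 11 were higher (ATF4 and PPP1CA) and 1 lower (EIF2AK4), of which PPP1CA remained called without replicate 2.

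Among 18 tested genes of mTORC1 and its inputs, 3 rose at 50 µM for 24 h (SESN2, DDIT4 and NPRL2). These 3 are negative inputs, but so are most genes of the list. The 2 that fell were DEPTOR, an inhibitor bound to mTOR, and RPS6KA1, a kinase downstream of ERK. SESN2 read 27, 23.8 and 28.9 CPM with vehicle, 63.4, 109 and 79.9 at 25 µM and 110, 91.9 and 145 at 50 µM. DDIT4 read 21.2, 17.7 and 23, 51.1, 46.9 and 56.6 and 42.4, 42.2 and 48.4 CPM in the same order. All PFOS libraries of both genes were above vehicle, and both also rose at 25 µM. After recovery from 50 µM, 1 of 18 was higher (RHEB, also without replicate 2) and 1 lower (RPTOR, not called without it).

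Of 18 genes for poly(A) binding and mRNA selection, 2 rose at 50 µM for 24 h (PDCD4, an inhibitor of eIF4A, and MKNK2, a kinase of eIF4E) and 2 fell (CTIF and LARP4). After recovery 2 were higher (PAIP1 and PAIP2) and 3 lower (CYFIP1, CTIF and NCBP1). Of 13 genes of termination, recycling and rescue, 1 rose (PELO) and 1 fell (ABCE1) at 24 h, and 2 were higher (MCTS1 and PELO) and 1 lower (ABCF1) after recovery. None of 9 genes that modify eIF5A and eEF2 was called at 24 h, and 3 (DHPS, DPH5 and DPH6) were higher after recovery. Of 12 mitochondrial translation factors, none was called at 24 h and 2 (MTIF3 and TSFM) were higher after recovery. At 25 µM for 24 h ATF4, SESN2 and DDIT4 were the calls in all these lists, and after recovery from 25 µM there was none. Without replicate 2, NCBP1, MCTS1, DPH5 and MTIF3 remained called after 50 µM recovery, the other 9 calls of these 4 lists did not, and DDX3X, ABCE1 and LTN1 were called lower.

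The 12 factors with a TOP start were set beside the 30 other tested factors with a promoter entry, as a description. Tested factors without an entry, among them EIF4EBP1 and EEF1D, were in neither set, so the values do not cover all 51 tested factors. At 50 µM for 24 h, 3 of 12 rose (EIF2D, EIF2S3 and EIF3D) with a median log2 change of 0.47, against 4 higher and 1 lower of 30 with a median of -0.01, where 18.8% of all tested genes were called. After recovery from 50 µM, 5 of 12 were higher (EEF1A1, EEF1B2, EIF3F, EIF3K and EIF4A2) with a median of 0.39, against 9 higher and 3 lower of 30 with a median of 0.24, where 28.4% of all tested genes were called. Without replicate 2, 4 of 12 were higher with a median of 0.25, against 3 higher and 1 lower of 30 with a median of 0.15 (15.9% of all tested genes). Other motifs were searched on both strands in the 250 bases before the start: the E-box CACGTG was found in 12 of 49 factors, 24.5%, and in 7.73% of all symbols, the cAMP response element TGACGTCA in 1 of 49 (EEF2), 2.04%, and in 2.03%, and the C/EBP-ATF element TGATGNAA in 1 of 49 (EIF4E3), 2.04%, and in 3.89%. The E-box genes were EEF2K, EIF1B, EIF2B3, EIF3F, EIF3K, EIF4A3, EIF4B, EIF4E, EIF4EBP3, EIF4G1, EIF4H and EIF5A2, and they included called genes of both directions. All symbols here are again those with any promoter entry, not restricted to protein-coding or tested genes.

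The change of a factor also went with the length of its gene. Across the 51 factors, Spearman's rho between the genomic span of the gene (RefSeq) and its log2 change was -0.27 at 25 µM and -0.44 at 50 µM for 24 h, and -0.34 and -0.28 after recovery, while across 9136 tested genes with a span it was -0.11, -0.17, -0.26 and -0.30. Without replicate 2 the last values were -0.34 for the factors and -0.35 for 9303 genes. Genes are not independent replicates, and the 4 values share libraries by time.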

How the data were processed

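RNA counts of 18 libraries (6 groups of 3) were used, and 18 CUT&Tag samples were not analysed here. The deposited table holds whole-number counts per gene symbol, not normalised, per the file's values. Trimmomatic, STAR, DESeq2, MACS2 and the builds GRCh38 and hg38 are named, without versions or roles, per the submitters' processing notes. How reads were assigned to genes (tool, gene models, strand) is not given in the sources used, so overlapping, antisense and near-identical genes may share reads: EIF5B overlaps REV1, EIF2S1 overlaps GPHN, EIF3J overlaps SPG11 and EIF1 has the paralog EIF1B.

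From the counts, edgeR 4.0.16 in R 4.3.3 fitted 1 mean per group over all 18 libraries (TMM, filterByExpr with a minimum count of 10, glmQLFit and glmQLFTest), with Benjamini-Hochberg adjustment over 9847 genes and a threshold of 0.05. The common biological coefficient of variation was 17.2%. Errors of log2 changes are SE. Single quantities were compared with the exact permutation test, whose smallest two-sided p for 3 against 3 is 0.1. Symbols of all 59 factors matched RefSeq. Alternatives were other scalings, filters and tools (DESeq2 1.42.0), smaller sets of libraries, the replicate block and leaving out each library.

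The members, gene lists and tests were chosen with earlier results of these data known. Full values were given for EIF4EBP1, for called factors (up to 8 per direction with the largest change in each comparison with vehicle), and for a list of core factors (EIF4E, EIF4EBP2, EIF2S1, EIF2S2, EIF2B1 to EIF2B5, EIF4G1, EIF4A1, EIF4A2, EIF1, EIF5, EIF5A, EIF6, EEF1A1, EEF1A2, EEF2 and EEF2K). EIF2S3, EIF3F, EIF3G, EEF1G, EIF1AD, EIF3A, EIF3B, EIF3E, EIF3I, EIF3J, EIF4E2, PPP1R15A, ATF4, SESN2 and DDIT4 were given values after these had been seen, as were the promoter motifs.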

Additional observations from a re-analysis of the deposited data

Results flagged for a closer look

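For 14 factors the effect of 50 µM PFOS against vehicle differed between recovery and 24 h (edgeR interaction, adjusted p under 0.05, 14 of 51 factors where 19.1% of all tested genes were called). The log2 difference, recovery minus 24 h, was 1.85 for EEF1E1 (adjusted p = 0.0213), 1.28 for EIF3K (0.016), 1.28 for EEF1B2 (0.0247) and 1.21 for EIF4E (0.0195). It was 0.879 for EEF1D (0.0232), 0.847 for EIF5A (0.0262), 0.825 for EIF6 (0.0128), 0.818 for EIF2S1 (0.027) and 0.777 for EIF5B (0.0483). Smaller differences were 0.676 for EIF4A2 (0.0425), 0.575 for EIF3F (0.0484) and 0.558 for EEF1G (0.0368). EIF5 at -0.552 (0.0448) and EIF2S3 at -0.749 (0.0219) were lower after recovery than at 24 h. EIF4E, EIF2S1 and EIF5A lay below vehicle at 24 h and above it after recovery in the fitted values, though of these 6 differences from vehicle only that of EIF5A after recovery passed the test. Without replicate 2 of the 50 µM recovery group, EEF1D, EIF3K, EIF6, EIF5 and EIF2S3 remained called and the other 9 were not, with EIF4E at 0.95 ± 0.33 (adjusted p = 0.0584) and EEF1E1 at 1.16 ± 0.46 (adjusted p = 0.0977). EIF6 alone was called when any 1 of the 12 libraries was left out.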

How the results depend on the processing

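Over all alternatives and comparisons, the 51 factors' calls were kept in 798 of 1074 values and lost in 276, 139 values gained a call, and no call changed direction. With the libraries of the compared groups alone, the number of factors called was 4 (25 µM, 24 h), 23 (50 µM, 24 h), 9 (50 µM, recovery), 12 (50 against 25 µM, 24 h), 0 (50 against 25 µM, recovery) and 2 (50 µM effect, recovery minus 24 h), against 1, 10, 22, 2, 17 and 14. The shares of all tested genes were 4.22%, 30.9%, 9.53%, 20.8%, 0% and 10.7%, against 1.24%, 18.8%, 28.4%, 7.4%, 22.1% and 19.1%. With the 9 libraries of the same time it was 3 (25 µM, 24 h), 28 (50 µM, 24 h), 16 (50 µM, recovery), 10 (50 against 25 µM, 24 h) and 6 (50 against 25 µM, recovery), where 3.88%, 32.6%, 16.8%, 19.3% and 9.34% of all tested genes were called. DESeq2 called 4 factors between the doses at 24 h (8.3% of genes). Leaving out each library in turn gave 0 for 25 µM at 24 h, 5 to 9 for 50 µM at 24 h, 11 to 33 for 50 µM recovery, 0 to 1 between doses at 24 h, 9 to 31 between doses after recovery, 2 to 23 for the difference between times and 0 to 1 between vehicle groups. The lowest and highest values for 50 µM recovery came without replicate 2 (11, where 15.9% of genes were called) and without replicate 1 (33, where 40.3% were) of that group. Without replicate 1 the comparison of doses after recovery gave 31 (37.3% of genes) and the difference between times 23 (32.8%). EIF4EBP1, EIF1 and EIF3D at 50 µM for 24 h remained called whichever library was left out, and 11 of 22 calls did after 50 µM recovery. The other 7 of 10 calls at 50 µM for 24 h were each lost in at least 1 of these fits. Upper-quartile scaling shifted the median log2 change of all genes by -0.125 at 50 µM recovery, called 17 factors higher and 6 lower there, and turned the share of higher among all called genes from 62.2% to 47.9%. The causes were not tested. Deviations of same-numbered libraries from their group means correlated at -0.337 to 0.393. For 50 µM and vehicle after recovery the values were 0.393, 0.248 and -0.155 for replicates 1, 2 and 3. Such values from 3 libraries per group cannot settle whether the numbers pair the libraries. With the replicate number as a block, 8 factors were called for 50 µM at 24 h (17.5% of genes), 21 for 50 µM recovery (27.3%) and 1 between the doses at 24 h (6.37%). The same fit called 14 between the doses after recovery (21.5%), 10 for the difference between times (16.9%) and 0 between vehicle groups (0.548%). The share of counts taken by all factors kept its direction without EEF1A1. The initiation to elongation ratio kept its direction with eIF5A counted as initiation, and was not computed without EEF1A1. The 8 untested factors had too few counts for the filter.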
